A study of Homo sapiens with 4 samples.

Results

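Described here are 10 genes for secreted matrix proteins and collagen crosslinkers, EDIL3, CTHRC1, TNC, LOX, LOXL2, TGFBI, FN1, SPARC, COL1A1 and NPNT, out of 19775 genes with a probe set of their own on the array. Every probe set whose platform annotation named only that gene was taken, which gave 31 probe sets. The genes were picked by name with levels and ratios from these arrays already known, so their levels and differences are descriptions without a test. RNA was hybridised to 4 Affymetrix arrays, 1 each for NCI-H358 with the CHST11 vector, NCI-H358 with the empty vector, A549 with the CHST11 vector and A549 with the empty vector. NCI-H358 is a human bronchioloalveolar carcinoma line and A549 a human lung adenocarcinoma line. All 4 cultures were stably transduced and antibiotic-selected, so the empty vector cells share vector and selection with the CHST11 cells. The labels give no clone, passage or second culture. CHST11 is a Golgi enzyme that sulfates chondroitin chains.

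The extracellular matrix is a secreted scaffold of collagens and adhesive glycoproteins. Lysyl oxidases crosslink collagen outside the cell, and integrins on the cell surface bind fibronectin, tenascin and similar proteins. In lung tumours, fibroblasts of the stroma are a main source of this matrix, and carcinoma cells can secrete parts of it as well.

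Values are the deposited signals on a linear scale, in arbitrary intensity units. A gene was called measured in a line when its brightest probe set reached a signal of 27.0 on 1 or both arrays of that line, 27.0 being the 60th percentile over all values. For log2 ratios, values under 16.14, the 50th percentile, were raised to it. Median signals of the arrays lay between 15.9 and 16.31. Log2 signals correlated with r = 0.996 between the NCI-H358 arrays, 0.9961 between the A549 arrays and 0.9378 to 0.9389 between lines. CHST11 probe set 219634_at had signals of 1058 and 220.1 in NCI-H358 and 343.5 and 129 in A549, with the CHST11 vector and the empty vector in that order within each line. Its other 2 probe sets had log2 ratios between -0.158 and 0.14. With 1 array per group there was no replicate within a line, and the number of arrays limits the precision. As a gauge of error, log2 vector ratios of different probe sets of a gene had an SD of 0.173 in NCI-H358 (5150 genes) and 0.158 in A549 (5117 genes). That gauge covers scatter within an array pair, and culture to culture spread is unknown. It used floored values pooled over bright and dim probe sets, so for dim genes it can be too small. Over all measured genes the vector ratios had an SD of 0.195 in NCI-H358 and 0.18 in A549, so a ratio beyond the gauge is not unusual.

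Promoter windows of 4 of the genes are shown: EDIL3, TNC and LOX as genes above the filter in NCI-H358 and under it in A549, and SPARC as the gene brighter in A549. The sequences are the 250 bases before the RefSeq gene start on GRCh38.p14, 5′ to 3′, all on the minus strand, at chr5:84384881-84385130, chr9:115118158-115118407, chr5:122078260-122078509 and chr5:151686916-151687165. The array carries no genome coordinates. RefSeq windows matched 7 of the 10 genes; CTHRC1, LOXL2 and COL1A1 are named only. Capitals mark matches to any of 3 motifs searched on both strands, which were chosen after the sequences had been seen. TATATAA is a form of the core promoter element that positions the polymerase. CATTCC is bound by TEAD factors of the Hippo pathway. TGANTCA is the motif of AP-1 factors.
EDIL3: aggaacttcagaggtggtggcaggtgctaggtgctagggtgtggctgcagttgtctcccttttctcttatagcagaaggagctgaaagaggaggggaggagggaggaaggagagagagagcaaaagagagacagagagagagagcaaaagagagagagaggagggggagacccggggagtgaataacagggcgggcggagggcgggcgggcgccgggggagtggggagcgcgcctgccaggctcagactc
TNC: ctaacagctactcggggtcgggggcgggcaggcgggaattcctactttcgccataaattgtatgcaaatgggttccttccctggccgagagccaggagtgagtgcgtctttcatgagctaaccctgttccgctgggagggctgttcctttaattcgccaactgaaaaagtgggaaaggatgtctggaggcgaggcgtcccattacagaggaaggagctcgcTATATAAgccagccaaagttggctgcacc
LOX: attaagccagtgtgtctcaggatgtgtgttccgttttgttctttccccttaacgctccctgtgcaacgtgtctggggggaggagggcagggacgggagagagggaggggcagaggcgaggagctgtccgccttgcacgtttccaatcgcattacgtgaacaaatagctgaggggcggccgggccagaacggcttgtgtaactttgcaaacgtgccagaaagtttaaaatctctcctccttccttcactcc
SPARC: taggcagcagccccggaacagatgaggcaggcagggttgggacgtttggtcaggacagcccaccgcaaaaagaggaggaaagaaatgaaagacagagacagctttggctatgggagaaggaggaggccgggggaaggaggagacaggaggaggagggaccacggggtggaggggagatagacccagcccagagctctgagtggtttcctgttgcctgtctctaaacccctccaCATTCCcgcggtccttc

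In these windows TATATAA stood only before TNC, 29 bases upstream of the start, and CATTCC only before SPARC, 17 bases upstream. Among all 35116 promoter windows of that length, 2.42% held TATATAA, 11.9% CATTCC and 6.57% TGANTCA, and TGANTCA was absent from all 4 windows shown. GC content was 61.2% before EDIL3, 54.8% before TNC, 55.2% before LOX and 59.2% before SPARC, against a median of 58% over all windows. The windows held 9, 12, 13 and 7 CpG dinucleotides in the same gene order, against a median of 11. EDIL3, TNC and LOX lay on both sides of each median. A match or its absence in a window is a description of letters and not of factor binding.

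EDIL3, CTHRC1 and TNC were bright on both NCI-H358 arrays and lay under the filter on both A549 arrays. EDIL3, a secreted integrin-binding glycoprotein with RGD and discoidin domains, had signals of 2699 with CHST11 and 2291 with the empty vector in NCI-H358, and 17.13 and 11.99 in A549. CTHRC1, a secreted protein with a short collagen-like repeat, had 2090 and 2014 in NCI-H358 and 25.01 and 17.48 in A549. TNC, tenascin C, an anti-adhesive glycoprotein of developing and wounded tissue, had 1206 and 1048 in NCI-H358 and 8.634 and 10.39 in A549. No A549 array came near an NCI-H358 array for these 3 genes. With the A549 values raised to the filter, NCI-H358 was at least 92.1-fold higher for EDIL3, at least 76-fold higher for CTHRC1 and at least 41.6-fold higher for TNC, each over 2 arrays per line. The gap was present within each vector: for EDIL3 the floored log2 difference, NCI-H358 minus A549, was 7.30 in the CHST11 arrays and 7.15 in the empty vector arrays, for CTHRC1 6.39 and 6.85, and for TNC 6.22 and 6.02.

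The other probe sets of these genes were dimmer. EDIL3 probe set 207379_at had signals of 103.6 and 64.26 in NCI-H358 and 10.46 and 10.05 in A549, and 1558643_s_at had 45.23 and 46.79 in NCI-H358 and 11.47 and 8.741 in A549. All 3 EDIL3 probe sets were thus above the filter in NCI-H358 alone. TNC probe sets 216005_at and 237169_at lay under the filter on all 4 arrays, so the TNC difference rested on 201645_at, and CTHRC1 had 1 probe set.

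LOX, the copper-dependent lysyl oxidase that starts collagen and elastin crosslinking, was measured in NCI-H358 only. Its probe set 215446_s_at had signals of 82.78 with CHST11 and 57.17 with the empty vector in NCI-H358, and 4.354 and 7.01 in A549, at least 2.55-fold higher in NCI-H358. A further LOX probe set, 204298_s_at, had 38.87 and 29.93 in NCI-H358 and 6.978 and 7.304 in A549. The third, 213640_s_at, lay under the filter on all 4 arrays. Its relative LOXL2, an oxidase that acts on collagen IV among other substrates, did not separate the lines: 202998_s_at had 472.1 and 458.8 in NCI-H358 and 486.9 and 417.5 in A549, and the ranges overlapped. The other 3 LOXL2 probe sets were under the filter on every array, at 10.17 to 15.54.

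NPNT, nephronectin, a basement membrane ligand of the integrin with the alpha 8 chain, had signals of 223.3 with CHST11 and 136.1 with the empty vector in NCI-H358, and 18.85 and 29.46 in A549. Both NCI-H358 values were above both A549 values, and the fold between lines was at least 6.18. NPNT was the gene whose line gap varied most with the vector, with a log2 difference of 3.57 in the CHST11 arrays and 2.21 in the empty vector arrays. ITGA8, the gene of the alpha 8 chain, was under the filter on all 4 arrays, at 9.848 to 12.1.

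TGFBI and FN1 were bright in both lines. TGFBI, an adhesion protein of the matrix induced by TGF-beta, had 9249 with CHST11 and 9283 with the empty vector in NCI-H358, and 7269 and 6724 in A549, which is 1.33-fold higher in NCI-H358. FN1, fibronectin, the glycoprotein that links integrins to collagen, had 2479 and 2140 in NCI-H358 and 1105 and 1444 in A549 on 210495_x_at, 1.82-fold higher in NCI-H358. The other 3 measured FN1 probe sets had log2 line differences of 0.884, 0.806 and 0.838, beside 0.866 for 210495_x_at. For both genes the arrays of the lines did not overlap.

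SPARC ran the other way. SPARC, a collagen-binding matricellular protein, had signals of 38.49 with CHST11 and 25.89 with the empty vector in NCI-H358, and 158.8 and 171.2 in A549 on 200665_s_at. That is at least 5.12-fold lower in NCI-H358, where the empty vector array was under the filter. Probe set 212667_at had 9.5 and 12.04 in NCI-H358 and 54.14 and 53.23 in A549, the same order of the lines.

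COL1A1, a chain of type I collagen and the main structural protein of stroma, overlapped between the lines on its 2 brightest probe sets. Probe set 217430_x_at had 161.1 with CHST11 and 170.2 with the empty vector in NCI-H358, and 152.5 and 165.4 in A549. Probe set 1556499_s_at had 123.6 and 91.5 in NCI-H358 and 104.4 and 96.92 in A549, and 202310_s_at had 38.74 and 41.24 in NCI-H358 and 32.79 and 34.16 in A549. On 202310_s_at the lines did not overlap, with a log2 difference of 0.256. The remaining 2, 202311_s_at and 202312_s_at, lay under the filter on all 4 arrays, at 3.942 to 13.21. The suffix _x_at marks probe sets with probes that can match other transcripts. COL1A2, which encodes the partner chain of type I collagen, had 12.91 and 15.17 in NCI-H358 and 15.99 and 11.19 in A549, all under the filter.

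**Figure D1:**
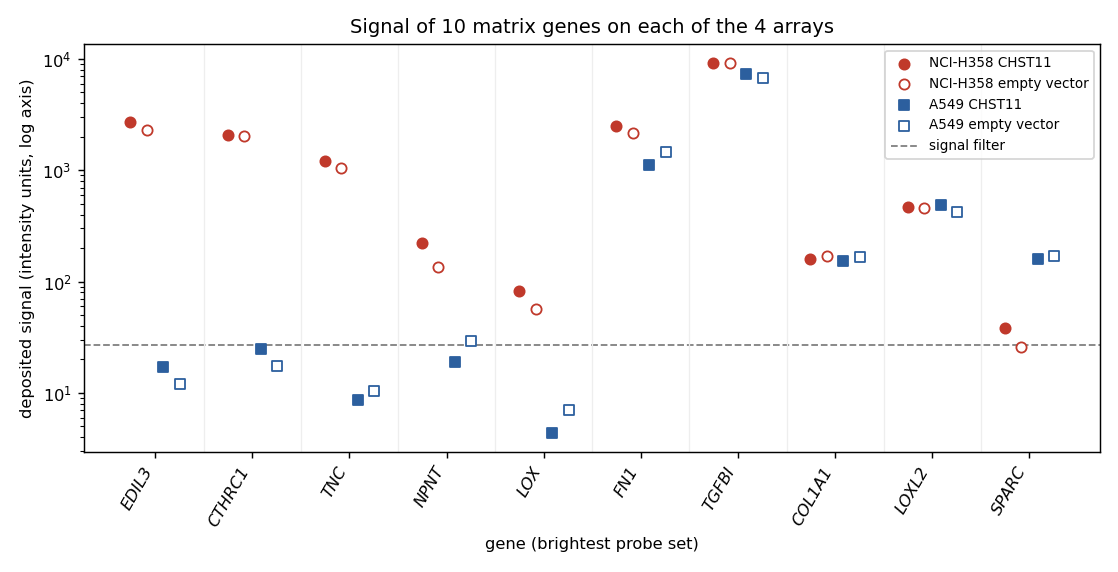
Deposited signal (log axis) of the brightest probe set of each of the 10 genes, 1 point per array, with the filter of 27.0 dashed; filled points are CHST11 arrays and open points empty vector arrays. EDIL3, CTHRC1, TNC and LOX lie above the filter in NCI-H358 and below it in A549, SPARC is brighter in A549, and COL1A1 and LOXL2 overlap between lines.

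By size, 6 of the 10 genes were at least 2-fold apart between the lines on the floored log2 scale, EDIL3, CTHRC1, TNC, LOX and NPNT higher in NCI-H358 and SPARC lower. Of all 12288 measured genes, 24.6% were at least 2-fold apart, 12.5% higher and 12.1% lower in NCI-H358. The arrays of the lines did not overlap for 8 of the 10 genes, where 85.7% of all measured genes had no overlap. Since the genes were chosen with these arrays known, nothing is read from the counts. In order of the floored log2 difference they ran EDIL3 7.23, CTHRC1 6.62, TNC 6.12, NPNT 2.89, LOX 2.09, FN1 0.87, TGFBI 0.41, COL1A1 0.06, LOXL2 0.05 and SPARC -2.39. The log2 line difference had an SD of 0.498 between probe sets of a gene (5577 genes). Neighbours in this order closer than that SD were CTHRC1 and TNC, FN1 and TGFBI, TGFBI and COL1A1, and COL1A1 and LOXL2. A gap between 2 genes holds the scatter of both, so the order of EDIL3 and CTHRC1 is not settled either. For genes under the floor in A549 the floored difference is too small by an unknown amount.

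The name stroma-like was set against markers of fibroblasts. Of 14 fibroblast markers, 11 lay under the filter on all 4 arrays, among them COL1A2, COL3A1 (4.681 to 7.811), DCN (18.5 to 25.02) and PDGFRB (9.061 to 11.07). ACTA2, TWIST2 and THY1 were measured, in A549 only. The summed signal of the 14 was 170.6 and 183 in NCI-H358 and 355.7 and 335.6 in A549, with the CHST11 vector and the empty vector in that order. The A549 sum included ACTA2 at 118.5 and 121.1, TWIST2 at 84.1 and 71.06 and THY1 at 40.93 and 33.51. All other values in the sums were under the filter, so they are no measure of a fibroblast level. Of 8 endothelial and leukocyte markers, 5 were under the filter on all 4 arrays, CDH5, VWF, TEK, PTPRC and CD163. PECAM1 was above the filter on all 4 arrays, at 34.58 to 39.96. CD14 had 11.08 and 10.6 in NCI-H358 and 38.41 and 24.21 in A549, and CD3E had 21.86 and 24.87 in NCI-H358 and 25.96 and 27.1 in A549. The part of such cells in the signals of the 10 genes was not tested.

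All 12 epithelial markers were measured in NCI-H358 and 9 of them in A549, and limma called 7 higher and 4 lower in NCI-H358 at an adjusted p of 0.05. Over all 12288 measured genes it called 64.6%, 34.0% higher and 30.6% lower. EPCAM had 5599 with CHST11 and 4684 with the empty vector in NCI-H358, and 123 and 209.8 in A549, and CDH1, E-cadherin, had 4243 and 3506 in NCI-H358 and 833.2 and 810.5 in A549. CLDN4, ESRP1 and GRHL2 were under the filter on both A549 arrays. The 4 lower in NCI-H358 were the keratins KRT7, KRT8 and KRT18 and the transcription factor gene ELF3. KRT18 had 5789 and 6218 in NCI-H358 and 13100 and 12910 in A549, and KRT8 had 1926 and 2148 in NCI-H358 and 5360 and 5235 in A549. The lung transcription factor gene NKX2-1 had 263.9 and 247.4 in NCI-H358 and 6.385 and 5.625 in A549. ABCA3, a lipid transporter of alveolar type II cells, ran the other way, with 37.84 and 18.59 in NCI-H358 and 115.6 and 108.3 in A549. Of 5 measured lung alveolar markers, limma called 2 higher and 1 lower in NCI-H358, near the 64.6% called over all measured genes. Markers other than EPCAM, CDH1, NKX2-1, COL1A2, COL3A1, DCN and PDGFRB were named after their values were seen. Of the 14 fibroblast markers, 0 were measured in NCI-H358 and 3 in A549. The name stroma-like is not borne out by these markers in NCI-H358, and in A549 only ACTA2, TWIST2 and THY1 went with it. The 10 genes are called matrix genes here.

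**Figure D2:**
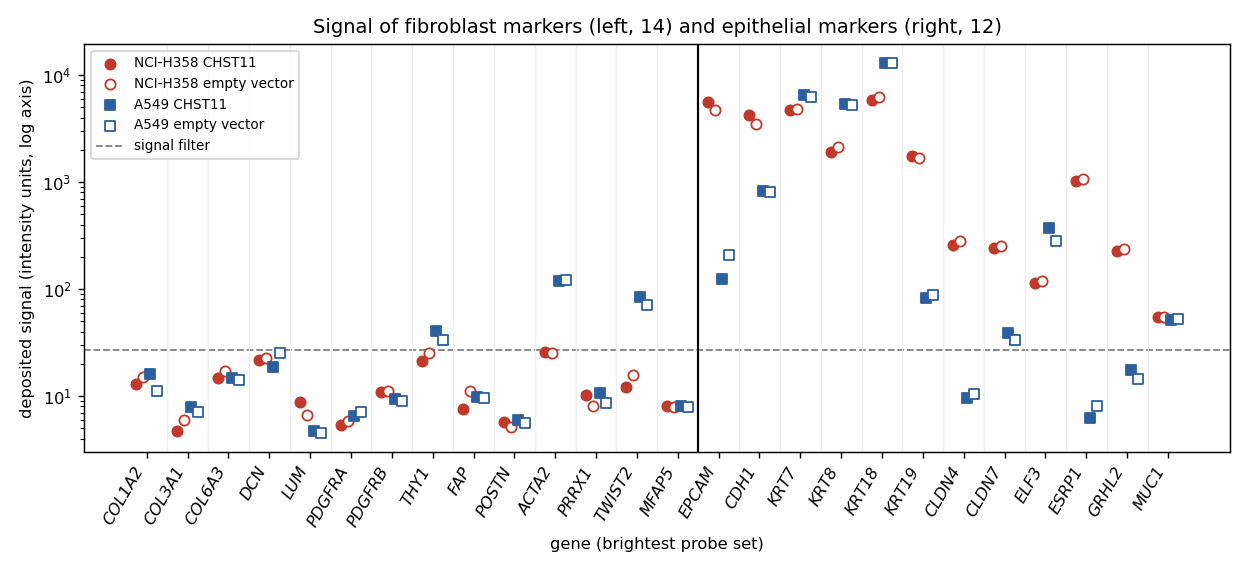
Deposited signal (log axis) of 14 fibroblast markers and 12 epithelial markers on each of the 4 arrays, with the filter of 27.0 dashed. In NCI-H358 no fibroblast marker reaches the filter; in A549 ACTA2, TWIST2 and THY1 do, and CLDN4, ESRP1 and GRHL2 lie below it in A549 but not in NCI-H358.

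Between the vectors, in NCI-H358, 1 of the 10 genes was at least 1.5-fold higher with CHST11, NPNT at 1.64-fold, and 0 were at least 1.5-fold lower. Of all 11401 genes measured in that line, 1.19% differed at least 1.5-fold, 0.921% higher and 0.272% lower. In A549, 6 of the genes were measured and NPNT was the gene at least 1.5-fold apart. It was 1.56-fold lower with CHST11, from a CHST11 value under the filter. Of 11452 genes measured there, 1.21% differed by that much, 0.48% higher and 0.725% lower. These counts go by size, with no p-value.

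NPNT thus had opposite vector ratios, log2 0.71 in NCI-H358 and -0.64 in A549, each beyond the SD between probe sets. Of 10565 genes measured in both lines, 3 (0.0284%) were at least 1.5-fold apart in opposite directions, NPNT among them. In A549 the CHST11 value of 18.85 was under the filter and the empty vector value of 29.46 just over it, so the A549 ratio came from dim signals. The second NPNT probe set, 244747_at, was at 5.156 to 6.951 on the 4 arrays and could not check either ratio.

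FN1 also ran in opposite directions at a smaller size. The 4 measured FN1 probe sets had log2 ratios of 0.212, 0.304, 0.275 and 0.251 in NCI-H358 and of -0.386, -0.429, -0.461 and -0.435 in A549. Each exceeded the probe set SD of its line, and none reached 1.5-fold. Opposite ratios beyond that SD in both lines were found for FN1 and NPNT among the 10 genes, and for 5.83% of the 10565 genes measured in both lines. The 4 probe sets report the same mRNA from the same cultures and are not replicates. Of these, 210495_x_at, 211719_x_at and 216442_x_at have the suffix of probe sets that can match other transcripts. FN1 probe set 214701_s_at, under the filter on all 4 arrays, had the opposite order in both lines. Its log2 ratio was -0.522 in NCI-H358 and 0.12 in A549. Beside the FN1 and NPNT ratios stands a list of genes for long mRNAs, chosen with earlier results of these data known. In A549, 51 of its 52 measured genes were below 0, with a median of -0.46 and 20 at least 1.5-fold lower. Among all genes measured in A549, 0.725% were at least 1.5-fold lower and the median was 0.013. In NCI-H358, 38 of 51 were above 0, with a median of 0.111 against 0.003 over all measured genes. Because of how the list was chosen, nothing is read from its counts. FN1 and NPNT are not on that list, mRNA lengths were not used, and the part of such a shift in their ratios was not tested.

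SPARC and LOX stood just under 1.5-fold in NCI-H358. SPARC had a log2 ratio of 0.57 in NCI-H358 on 200665_s_at and -0.11 in A549. SPARC probe set 212667_at, under the filter on both NCI-H358 arrays, had the opposite order there, 9.5 with CHST11 and 12.04 with the empty vector, so the NCI-H358 direction was not settled. LOX had log2 0.53 on 215446_s_at and 0.38 on 204298_s_at in NCI-H358, both higher with CHST11 and both beyond the probe set SD.

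The 3 EDIL3 probe sets spread widely in NCI-H358, with log2 ratios of 0.24 on 225275_at, 0.69 on 207379_at and -0.05 on 1558643_s_at. The size of the EDIL3 ratio is therefore not settled. COL1A1 had 0.43 on 1556499_s_at but -0.08 on 217430_x_at and -0.09 on 202310_s_at in NCI-H358, and -0.12 to 0.11 in A549. TNC had 0.20 in NCI-H358, CTHRC1 0.05, TGFBI -0.005 there and 0.11 in A549, and LOXL2 0.04 in NCI-H358 and 0.22 in A549. Ratios of EDIL3, CTHRC1, TNC and LOX in A549 came from signals under the filter and are not given.

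Over the 10 genes the median log2 ratio in NCI-H358 was 0.207, with 8 above 0 and 2 below, where the median over all measured genes was 0.003. Over the 6 measured in A549 it was -0.113, with 2 above 0 and 4 below, where all measured genes had a median of 0.013. The genes were chosen with these ratios known and come from the same array pairs, so nothing is read from these medians and counts.

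**Figure D3:**
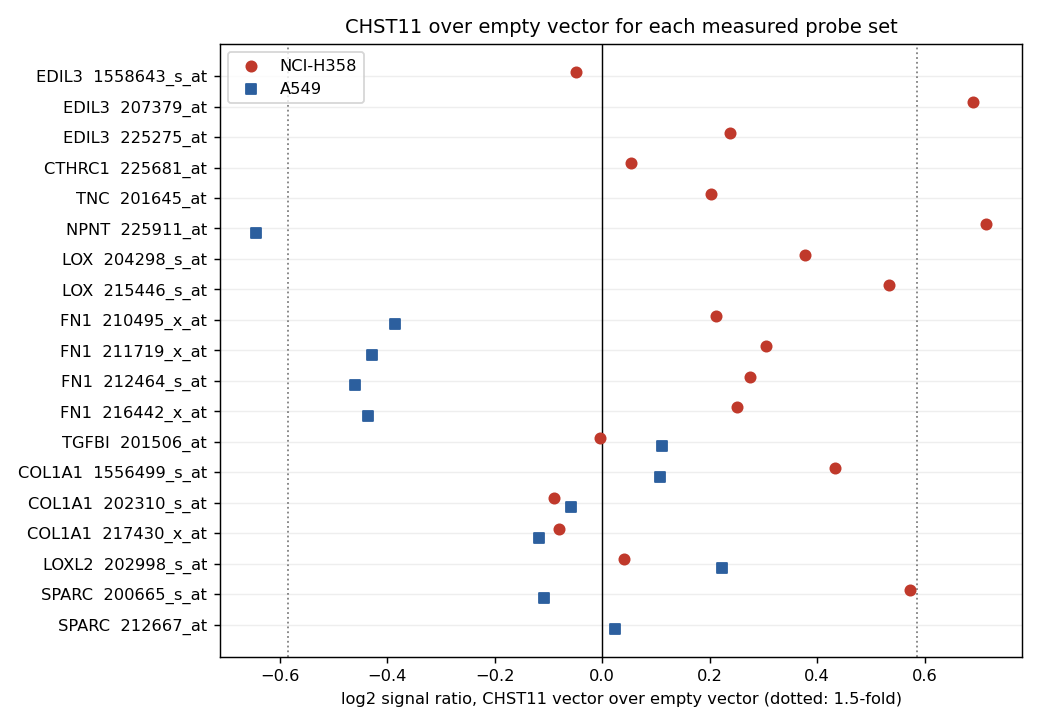
Log2 signal ratio, CHST11 vector over empty vector, of each probe set of the 10 genes that was measured in a line (circles NCI-H358, squares A549; values under 16.14 raised to it; dotted lines at 1.5-fold). The 4 FN1 probe sets lie between 0.212 and 0.304 in NCI-H358 and between -0.461 and -0.386 in A549. NPNT is beyond 1.5-fold in both lines, in opposite directions, with its A549 CHST11 value under the filter.

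Treating the lines as replicates of the vector contrast, the count of genes past a limma adjusted p of 0.05 was 0 of 12288 (0.0%), while 373 (3.04%) had an unadjusted p under 0.05. With a trend on mean signal it called 0 (0.0%), with 331 (2.69%) unadjusted. That fit leaves 1 residual degree of freedom per gene and takes a difference in response between the lines as error.

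Other genes of matrix assembly were read from 7 lists of 128 genes, of which 89 were measured. Between the lines, limma called 69 of these 89 (77.5%) at an adjusted p of 0.05, 30 higher and 39 lower in NCI-H358, where it called 64.6% of all 12288 genes, 34.0% higher and 30.6% lower. Their median log2 difference was -0.225, against 0.029 over all genes. These lists were also chosen with earlier results of these data known, so nothing is read from their counts and medians. The lines came as 2 arrays each that differ by vector, and the vector is a term of the fit. These p-values set the line gap against its difference between the vectors, with a spread shared over all genes, and not against independent cultures. For genes under 16.14 on both arrays of a line, the floor leaves no spread in that line. The fit used floored values, while folds given as at least used values raised to the filter.

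The list of 9 fibrillar collagens leaves out COL1A1, and 4 of the 9 were under the filter on all 4 arrays. Of the 5 measured, 4 were called lower in NCI-H358, opposite to EDIL3, CTHRC1 and TNC, and COL5A3 did not pass (limma adjusted p = 0.0544). COL1A1, a fibrillar collagen as well, had a log2 line difference of 0.06. COL11A1 and COL27A1, named after their values were seen, were at least 6.49-fold and 1.41-fold lower in NCI-H358. COL5A2 had 26.86 and 30.66 in NCI-H358 and 1621 and 1640 in A549, at least 56.7-fold lower in NCI-H358 (limma adjusted p = 2.52e-05). COL5A1 had 16.57 and 19.59 in NCI-H358 and 343.5 and 355.1 in A549, at least 12.9-fold lower (limma adjusted p = 3.15e-05). Of the other collagens, 5 of 8 were higher and 3 lower, where limma called 34.0% of all measured genes higher and 30.6% lower. COL8A1, a short-chain network collagen, had 343.2 and 332.4 in NCI-H358 and 4.445 and 4.488 in A549, at least 12.5-fold higher (limma adjusted p = 2.78e-05), and COL13A1, a transmembrane collagen, was at least 7.13-fold higher. COL12A1, a fibril-associated collagen, was 1.97-fold lower and COL16A1 at least 1.26-fold lower.

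Among genes of collagen processing and crosslinking, which include the other lysyl oxidase relatives, 7 of 19 were higher in NCI-H358 and 8 lower. The shares over all measured genes were 34.0% and 30.6%. SERPINH1, the collagen chaperone, was 3.43-fold higher and PLOD3, a lysyl hydroxylase, 2.2-fold higher, while P4HA3, a prolyl hydroxylase subunit, was 3.83-fold lower and PCOLCE2, an enhancer of procollagen cleavage, 2.54-fold lower. LOXL3 had 39.19 and 39.27 in NCI-H358 and 19.99 and 19.41 in A549, LOXL4 had 23.14 and 24.26 in NCI-H358 and 33.58 and 31.17 in A549, and LOXL1 was under the filter on all 4 arrays. These lysyl oxidase relatives were named beside LOX and LOXL2 after their values were seen.

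Of 25 measured matrix glycoproteins, 10 were higher and 7 lower in NCI-H358, beside 34.0% and 30.6% of all measured genes. FBLN2, fibulin 2, had 211.4 and 207.7 in NCI-H358 and 12.45 and 11.73 in A549, at least 7.76-fold higher, and EFEMP1, a fibulin as well, was 5.11-fold higher. FBN2, fibrillin 2, was at least 16-fold lower and MATN2, a matrilin, at least 4.32-fold lower. Of 10 matricellular proteins, the class to which SPARC and TNC belong, 2 were higher and 7 lower, beside the same shares of all genes. CCN3 was at least 9.71-fold higher and CCN1 2.9-fold higher. SPP1, osteopontin, had 172.1 and 158.1 in NCI-H358 and 2186 and 2313 in A549, 13.6-fold lower, and IGFBP7 was 9.91-fold lower.

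Matrix receptors split evenly, with 4 of 11 higher and 4 lower in NCI-H358, beside 34.0% and 30.6% of all measured genes. SDC4, a heparan sulfate co-receptor for fibronectin, was 8.36-fold higher, ITGA2, a collagen receptor chain, 2.97-fold higher, MRC2, a collagen uptake receptor, 3.54-fold lower and ITGB5 3.23-fold lower. Of the fibronectin receptor chains, ITGA5 had 52.37 and 41.66 in NCI-H358 and 94.26 and 104.5 in A549, and ITGAV had 1855 and 1556 in NCI-H358 and 1150 and 1221 in A549; they were named after their values were seen. Of 11 genes of TGF-beta signalling, the pathway that induces TGFBI, 2 were higher and 6 lower, beside the same shares of all genes. TGFB3 was at least 1.55-fold higher and SMAD3 1.33-fold higher, while TGFB1 was 4.92-fold lower and the co-receptor TGFBR3 at least 6.62-fold lower. All genes given a fold in these lists passed limma's adjusted p of 0.05.

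**Figure D4:**
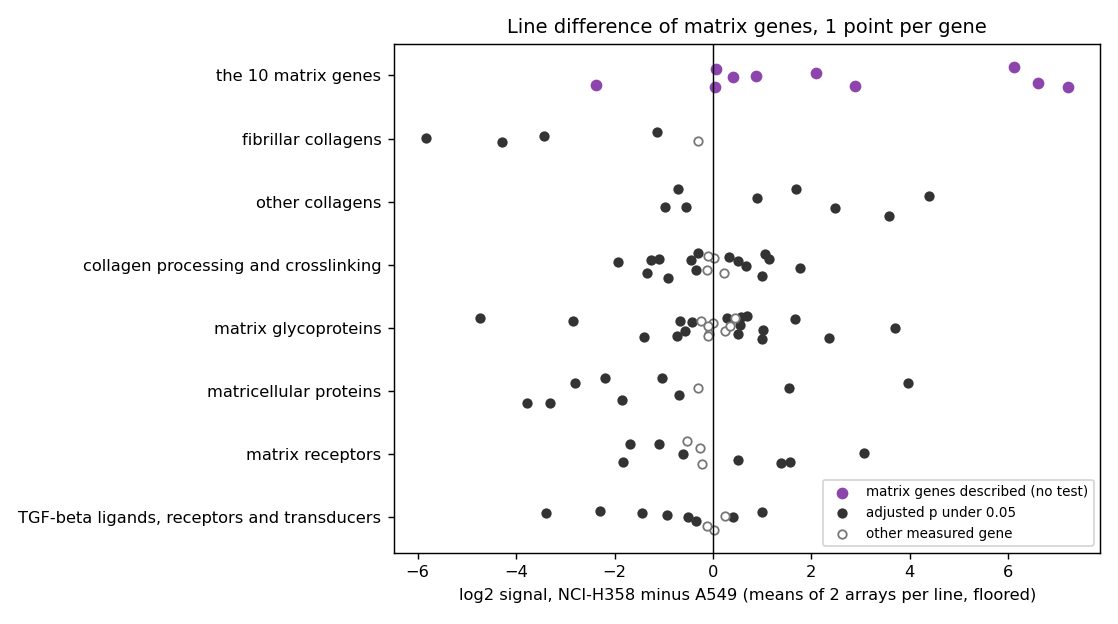
Log2 difference in signal, NCI-H358 minus A549 (means of 2 arrays per line, values under 16.14 raised to it), for the 10 genes described and for the measured genes of 7 matrix lists, 1 point per gene with vertical scatter for display. Filled black points have a limma adjusted p under 0.05; EDIL3, CTHRC1 and TNC lie above 6, and the called fibrillar collagens lie below 0.

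Between the vectors, in NCI-H358, 1 of 70 measured genes of these lists (1.43%) was at least 1.5-fold apart, beside 1.19% of all measured genes. It was COL6A2, a chain of collagen VI, with 83.02 with CHST11 and 133 with the empty vector. In A549, 6 of 79 (7.59%) were, beside 1.21% of all measured genes. Because of how the lists were chosen, nothing is read from either count. MRC2 and DDR2, both collagen receptors, were higher with CHST11 (log2 0.62 and 0.61), and FBN1, FBN2, FRAS1 and COL12A1 were lower (-0.88, -0.87, -0.65 and -0.60). DDR2 had 28.44 with CHST11 and 18.67 with the empty vector in A549, the second under the filter, and was 1.05-fold higher with that array raised to it. COL6A2, DDR2 and FRAS1 were named after their values were seen. In the same A549 arrays the listed long mRNAs, chosen with earlier results known, had a median of -0.46. The part of that shift in the 4 lower genes was not tested. Among genes measured in both lines, those with the largest absolute mean vector ratio in their lists included PLOD2, SMOC1 and TGFB2. PLOD2, a lysyl hydroxylase, had log2 0.53 in NCI-H358 and -0.05 in A549. SMOC1, a relative of SPARC, had -0.52 and -0.19, and TGFB2 had 0.27 and 0.08, in the same order of lines.

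Genes with a pattern most like that of NPNT over the 4 arrays were found by the Euclidean distance of log2 values centred per gene. They were DNM3 (distance 0.293), TRAM1L1 (0.316) and PLCB1 (0.325). DNM3 had 159.1 with CHST11 and 105.4 with the empty vector in NCI-H358, and 17.77 and 23.63 in A549. For EDIL3 the nearest were PRDX2 (0.28), CDH3 (0.609) and COX7B2 (0.689), and PRDX2 had 3101 and 2962 in NCI-H358 and 25.49 and 19.51 in A549. With 4 arrays from 2 lines, these distances mostly reflect the line difference.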

How the data were processed

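Per the submitters' processing notes, the deposited intensity values of 4 Affymetrix arrays were made with MAS5, whose version and scaling are not stated there. They are linear, from 2.462 to 15499, without replicates. Names came from the platform annotation, with 1 symbol for 41091 of 54675 probe sets, several for 1801 and none for 11721; 41037 matched RefSeq by Entrez ID. Each of 19775 genes was represented by its brightest probe set by mean log2 signal. The floor was the 50th percentile and the filter the 60th. A fold between lines is written as "at least" where arrays under the filter were raised to it. limma 3.58.1 in R 4.3.3 (terms for line and vector, prior degrees of freedom 3.5, Benjamini-Hochberg) was fitted to 12288 genes and tested on simulated data. Python 3.11.15, NumPy 2.4.6, pandas 2.3.3 and matplotlib 3.10.9 did the rest. The genes and lists were chosen with earlier results of these data known. Named genes are the 10 genes and, in each list, the 2 highest and 2 lowest called. Also named is, per list, the gene with the largest absolute mean vector ratio. CHST11, 6 markers and the 3 nearest genes to NPNT and EDIL3 complete the set. Exceptions are stated. Alternatives were other normalization, floors, filters, probe set summaries, fits and left-out arrays.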

Additional observations from a re-analysis of the deposited data

Results flagged for a closer look

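Among the 10 genes and the other genes given by name with values, those whose vector ratio lay on opposite sides of 0 in the 2 lines, beyond the probe set SD in both, are given with the difference of their log2 ratios, NCI-H358 minus A549. The difference was not tested, with 1 array per group, and 5.83% of the 10565 genes measured in both lines met the same description. Among the 10 genes it was 1.358 for NPNT and 0.598 for FN1. Among the other genes it was 0.822 for COL12A1, -0.373 for P4HA3, -0.874 for MRC2, -0.897 for TGFB1, 0.932 for FRAS1, 0.83 for TRAM1L1, 0.768 for PLCB1 and 1.027 for EPCAM.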

How the results depend on the processing

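Of 202 values of the 10 genes under alternatives, 190 moved by less than the probe set SD, 12 moved by more, and 0 past their fold size changed sign. Among smaller values 3 changed sign: with the median of probe sets COL1A1 was 0.434 in NCI-H358 and 0.107 in A549, and the LOXL2 line difference was -0.045 within the CHST11 arrays. The 6 genes at least 2-fold apart between lines were the same under quantile normalization, median centring, both other floors, no filter and the median of probe sets; the filter at the 75th percentile dropped LOX and left 5, and leaving out 1 array gave 6 to 7, with FN1 added without the A549 empty vector array. With the filter at the 75th percentile NPNT was no longer measured in A549, leaving 0 genes at least 1.5-fold apart there, and all genes at that size numbered 57 in A549 and 45 in the NCI-H358 pair. Taking the median of probe sets, 2 of the genes were at least 1.5-fold apart in NCI-H358, EDIL3 (log2 0.689) and NPNT, the EDIL3 line difference was 2.337 and the LOX one 1.585. With no floor the LOX line difference was 3.638 and the TNC one 6.891. With no filter limma called 1938 genes between the lines, 21 of them in the matrix lists, over 19775 genes tested; the cause was not tested. Leaving out 1 array, with the line as the sole term, gave 5330 to 6465 genes and 48 to 55 in the matrix lists, the lone array of a line being assumed to vary like the other line. The shared vector difference had 0 calls under every alternative run, with 220 to 1220 genes at an unadjusted p under 0.05. The limma fit holds the line as a term and so sets the vectors against each other within each line; no replicate numbers exist for a further block. Signals near the filter limit NPNT and SPARC in the dimmer line.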
